A study of Mus musculus with 23 samples.

Results

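WT plasmablasts were compared with WT naive B cells of the mouse spleen, gene by gene, to show how the transcriptome of an antibody-secreting cell differs from that of the resting cell it comes from. The plasmablasts were 2 libraries labelled IRF8 WT, with no Irf8 sgRNA, that were sorted as CD138+ cells with positive to intermediate B220 and no CD11b, F4/80, Thy1.2 or Thy1.1. They had been cultured for 72 h with IL-2 at 20 ng/ml, IL-5 at 5 ng/ml and LPS, whose dose the label gives as 20 mg/ml. The labels call the sorted population "Plasma cell"; these CD138+ cells, which still held B220, are called plasmablasts below. The naive B cells were 6 libraries labelled IRF8 WT, with no sgRNA and no treatment, sorted as B220+ cells without CD11b, F4/80, Thy1.2 or Thy1.1. They came from 2 arms of 3 libraries (A, B and C in each), named after the Irf8 guide that the Thy1.1+ cells of that arm carried. These 8 libraries are part of 23 in the series, and 10178 of the 11944 genes listed in either table could be compared. The others are 9 naive and plasmablast libraries labelled IRF8 KO, 3 of WT activated B cells (B220+GL7+CD138-Thy1.1-, from the same culture conditions) and 3 of activated cells labelled IRF8 KO. How the guide and Thy1.1 reached the cells, the age and sex of the mice, and whether replicates came from separate mice or cultures are not given in the sources used here.

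A plasma cell forms when a B cell stops presenting antigen and turns to secreting antibody. The repressor Blimp-1 (Prdm1) and the factor IRF4 shut down the programme held by Pax5, Bach2 and Bcl6, and XBP1 builds up the endoplasmic reticulum (ER) that folds and exports immunoglobulin. Plasmablasts are the dividing stage of this path. The immunoglobulin heavy, kappa and lambda genes were not analysed here.

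The authors deposited the naive and the cultured libraries as separate tables of RPKM, read counts divided by gene length and library depth. Each library was rescaled so that the shared genes summed to the same total. All levels below are rescaled RPKM unless another unit is named, and differences are of mean log2(rescaled RPKM + 1), plasmablast minus naive, a scale that understates changes of low genes. A gene was called when its means differed 4-fold or more and no plasmablast library overlapped the naive range. The table and the stage cannot be told apart, so no p-value is given for this comparison and only such large changes are described. In these bulk libraries, fewer cells of a type and less RNA per cell cannot be told apart. Where an adjusted p is printed, it comes from limma with Benjamini-Hochberg adjustment. It compares WT plasmablasts with WT activated B cells inside the cultured table, and measures the spread between libraries, which may be technical. The limma fits, with their differences and SE, used log2(deposited RPKM + 1) without the rescaling, so they can differ slightly from the rescaled levels printed beside them.

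The sort labels were checked against marker RNAs. The B cell receptor chain Cd79a was at 746 or more in all 8 libraries, and Sdc1 (CD138) was higher in both plasmablast libraries than in any naive library. Thy1 was at 0.0525 and 0.126 in the plasmablast libraries and at 0.0532 or less in 5 naive libraries, but at 5.09 in arm 1 library A. Markers of neutrophils were not listed in either table, and of 18 macrophage and monocyte markers 2 were listed in the cultured table and 12 in the naive table, with sums of 4.17 to 5.33 RPKM in plasmablasts, against 8.36 to 21.5 in naive cells. Summed natural killer markers were at 0.104 to 0.159 RPKM in plasmablasts, against 4.28 to 18.6 in naive cells, and summed T cell markers at 6.95 to 7.10, against 16.6 to 25.7. Most of the T cell sum was Cd28 in plasmablasts (6.17 and 6.71 deposited RPKM) and Lck in naive cells (15.5 to 23.5 rescaled RPKM). Summed dendritic cell markers were at 160 to 165 in plasmablasts, against 34.2 to 49.6 in naive cells. Of these markers the cultured table lists Bst2, Ccr9 and Flt3. Bst2, which is also in the interferon-stimulated list below, and Flt3 were not called between plasmablasts and naive cells, and Ccr9 was too low to be tested. The marker sums of all these cell types are of deposited RPKM. The part of other cells in the results was not tested. The WT activated library m3, labelled Thy1.1-, held Thy1 at 23.4, against 0.0124 and 0.0515 in m1 and m2. In libraries labelled IRF8 KO, Thy1 was at 30.8, 36.8 and 53.6 in plasmablasts and at 8.62 to 22.2 in naive cells. Why activated WT m3 held Thy1 RNA was not tested. Because of this Thy1 level, and because plasmablast KO library m3 was very shallow (an estimated 41000 reads in genes), limma was also run on fewer libraries. Activated m3 of both genotypes and plasmablast KO m3 were left out, written below as "without 3 libraries". Activated KO m3 had an estimated 9800000 reads in genes. Estimated reads in genes were 26800000 and 4290000 in the WT plasmablast libraries and 17400000 to 19700000 in the naive libraries.

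Of 9718 genes at 1 RPKM or more in at least 2 of the 8 libraries, 413 (4.25%) were called higher and 543 (5.59%) lower in WT plasmablasts. Of these, 48 were at least 16-fold higher and 68 at least 16-fold lower. The median difference over all tested genes was -0.34, and ranges did not overlap, at any fold, for 70.8% of them (24.0% higher, 46.9% lower), so a gene whose ranges were apart was the usual case. The plasmablast libraries lay within 2-fold of each other for 99.7% of tested genes, with r = 0.99 across genes, against 0.958 to 0.982 among naive libraries and 0.686 to 0.72 between the stages. Scaling by median ratios moved the median difference to -0.02 and gave 589 higher and 397 lower, so that 59.7% of calls were higher, against 43.2% with the sum over shared genes. At the threshold, Bet1, a vesicle-docking protein of the ER to Golgi step, was called at 2.01, and Calu, a calcium-binding protein of the secretory pathway, was not at 1.99.

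**Figure D1:**
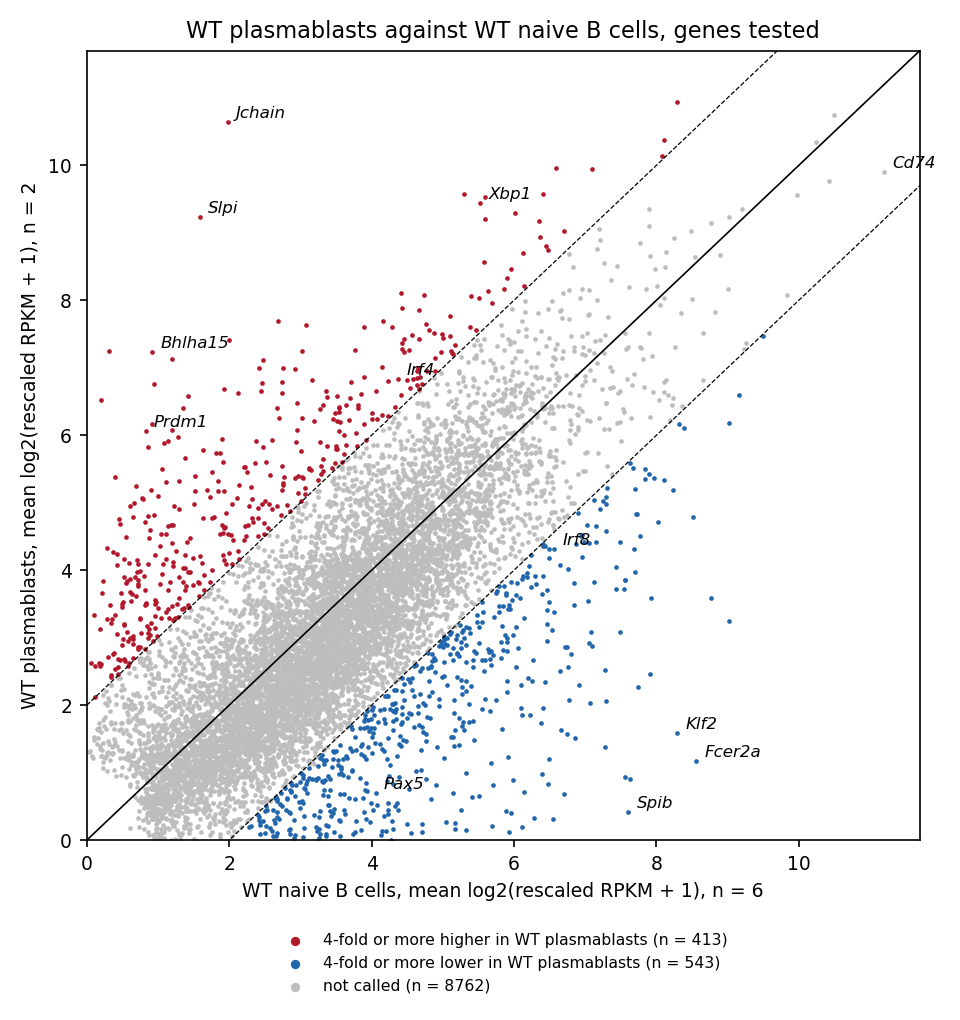
Each point is 1 of the 9718 tested genes, with the mean log2(rescaled RPKM + 1) of 2 WT plasmablast libraries on the y axis and of 6 WT naive libraries on the x axis. Solid line, equal levels; dashed lines, 4-fold; the 413 genes called higher are red and the 543 called lower are blue, and Jchain and Slpi lie farthest above the line while Fcer2a and Spib lie farthest below.

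The largest rises were those of Jchain and Slpi, which encode secreted proteins. Jchain, the joining chain of secreted IgM and IgA (Entrez 16069, mm10 chr5:88519809-88527897), was at 1140 and 2220 in plasmablasts, against a lowest, median and highest value of 0.0482, 2.37 and 71.7 in naive cells. The groups were far apart even though 1 naive library, arm 2 C, stood well above the other naive libraries, and the log2 difference was 8.66. Slpi, a secreted inhibitor of leukocyte proteases, was at 647 and 559 in plasmablasts, against 0.140, 1.30 and 26.1 in naive cells, a log2 difference of 7.65. Both plasmablast values exceeded every naive value more than 10-fold. Together Jchain and Slpi made up 0.945% and 1.47% of the summed RPKM of the plasmablast libraries, against 0.0392% at most in a naive library. The other genes among the 12 with the largest rises were Tent5c (6.93), a poly(A) polymerase, Hid1 (6.32), a protein of secretory granule traffic, Bhlha15 (6.30), Fkbp11 (5.94), Ube2c (5.80), Derl3 (5.41), Prdm1 (5.24), H1f0 (5.24), a linker histone, Sec24d (5.16) and Eaf2 (5.06), a partner of the elongation factor ELL.

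Among 19 regulators linked to plasma cells, 5 were called higher (Prdm1, Xbp1, Creb3l2, Ell2 and Irf4), 1 was called lower (Id3) and 13 were not called. The median difference was -0.25, close to that of all genes. Id3, Ikzf3, Mef2c, Pou2f2, Tcf3 and Tcf4 of this list are also counted among the B cell identity factors below. Prdm1, which encodes Blimp-1 (Entrez 12142, mm10 chr10:44437174-44528558), was at 64.1 and 68.1 in plasmablasts, against 0.0276, 0.860 and 1.37 in naive cells. Xbp1 was at 561 and 862 in plasmablasts, against 32.8, 47.4 and 52.1 in naive cells, a difference of 3.92. No library of either stage came near the other stage for these genes. Irf4 was at 112 and 115 in plasmablasts, against 15.5, 18.5 and 27.9 in naive cells, a difference of 2.47. Bhlha15, which encodes Mist1, a factor of secretory cells, was at 146 and 152 in plasmablasts, against 0.0506, 1.20 and 2.12 in naive cells. Creb3l2, an ER-bound factor that drives secretory genes, differed by 3.87, and Ell2, an elongation factor that favours the secreted form of the heavy chain, by 2.97. Pou2af1, the B cell co-activator OCA-B, was at 487 and 620 in plasmablasts, against 199, 238 and 285 in naive cells, and did not reach 4-fold. Ikzf3, which encodes Aiolos, was at 34.4 and 33.7 in plasmablasts, inside the naive range of 30.9 to 59.2.

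Activated B cells from the same culture conditions held part of these regulators already. Against the same naive libraries, 297 of 9737 genes (3.05%) were called higher and 199 (2.04%) lower in 3 WT activated libraries, and this comparison shares its naive libraries with the one above. Prdm1 was already at 53.9, 67.0 and 86.1 in activated cells, and its difference between plasmablasts and activated cells was 0.01 ± 0.43 (SE), with a limma adjusted p of 1. Without 3 libraries that difference was 0.20 ± 0.12, with a limma adjusted p of 0.194. Xbp1 was at 248, 304 and 515 in activated cells. Its difference from plasmablasts, 1.08 ± 0.52, had a limma adjusted p of 0.419 with all libraries and of 9.02e-05 without 3 libraries, where it was 1.40 ± 0.20. Zbtb32, a repressor in activated B cells, was at 0.895, 1.16 and 4.90 (lowest, median, highest) in naive cells, 119, 95.0 and 44.7 in activated cells, and 4.30 and 5.67 in plasmablasts. Plasmablast Zbtb32 was lower than activated by 3.74 ± 0.42 on the log2 scale (limma adjusted p = 0.00435). None of 14 tested class-switch repair genes was called between plasmablasts and naive cells, a count near the background of 4.25% higher and 5.59% lower, and 1 was called higher under median-ratio scaling.

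**Figure D2:**
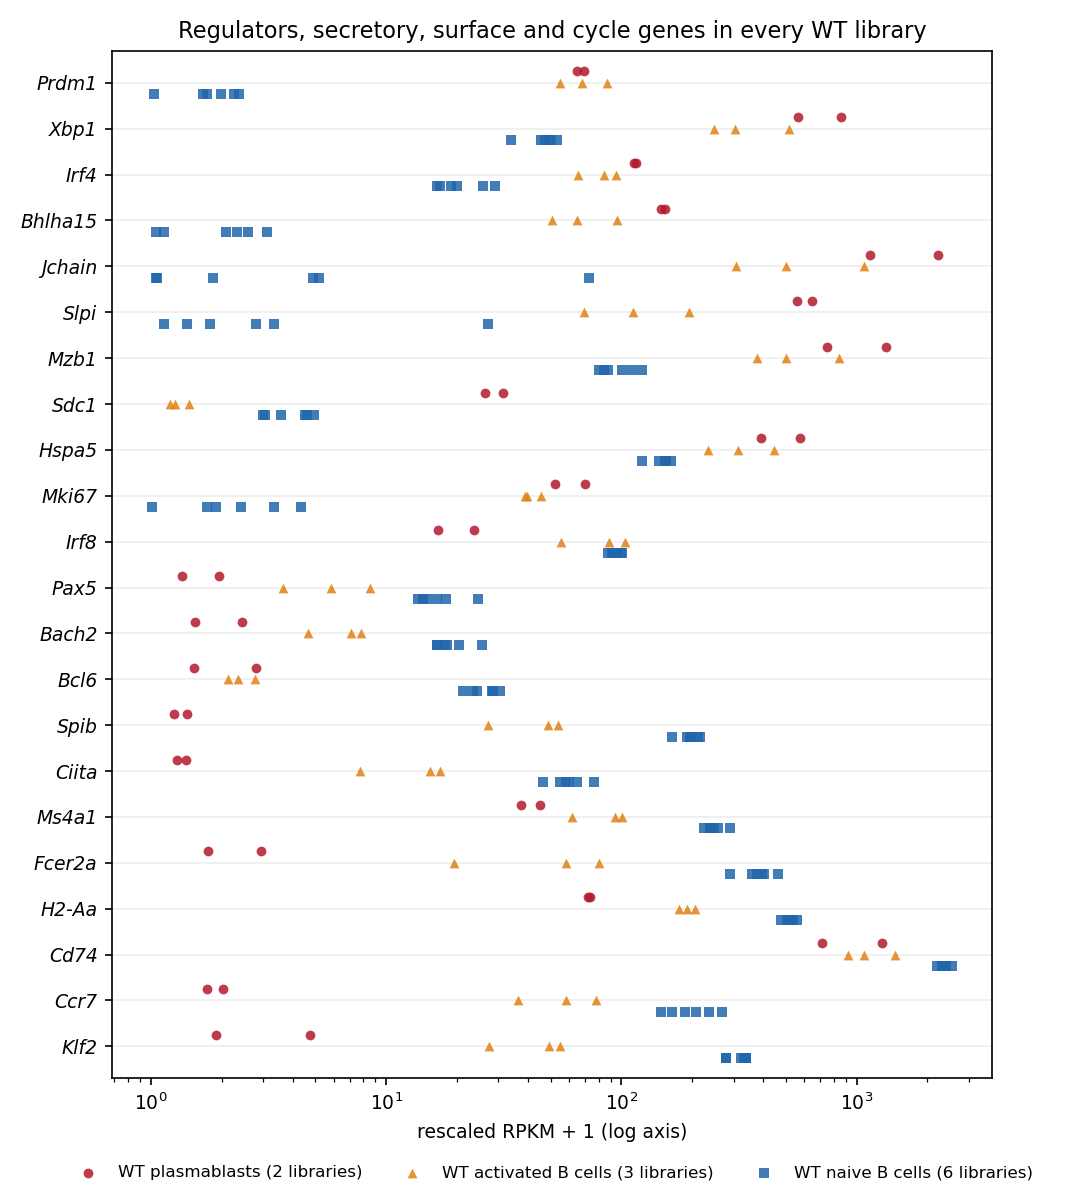
Level of 22 genes in every WT library, as rescaled RPKM + 1 on a log axis, with plasmablasts as circles (2), activated B cells as triangles (3) and naive B cells as squares (6). Prdm1 overlaps between activated cells and plasmablasts, while Pax5, Spib, Ciita and Fcer2a step down over the 3 stages.

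Within the cultured table, limma with all 11 libraries called 33 genes (0.33% of 9986) higher and 143 (1.43%) lower in WT plasmablasts than in WT activated cells. Without 3 libraries the counts were 1533 (15.5% of 9861) and 3032 (30.7%). The counts moved when 1 library was left out, where a lone plasmablast library is assumed to vary like the other groups. Without plasmablast library m2 limma called no gene in either direction (650 at an unadjusted p under 0.05), and without m1 it called none higher and 23 lower (845 at an unadjusted p under 0.05). Without activated library m1 the counts were 2 higher and 26 lower, and without m2 they were 2 and 25. Sdc1, which encodes the sort marker CD138, was at 25.3 and 30.3 in plasmablasts, against 2.01, 3.03 and 3.96 in naive cells and 0.450, 0.269 and 0.206 in activated cells sorted as CD138-. Plasmablast Sdc1 thus exceeded both other stages, and the CD138 sort fixes its direction against activated cells (log2 difference 4.58 ± 0.75, limma adjusted p = 0.0202).

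Surface and secreted products of plasma cells rose as a group. Of 27 tested, 15 were called higher and none lower, with a median difference of 2.84, against -0.34 over all genes. Mzb1, a chaperone of IgM assembly, was at 748 and 1330 in plasmablasts, against 79.4, 93.2 and 122 in naive cells. Txndc5, a disulfide isomerase, differed by 3.28, Ly6c2 by 3.47 and the cytokine gene Il10 by 2.88. Cd93, a receptor kept by long-lived plasma cells, was at 35.3 and 12.7 in plasmablasts, against 0.743, 1.52 and 3.77 in naive cells, with the plasmablast libraries nearly 3-fold apart. Tnfrsf13b, which encodes the receptor TACI, was not called, at 146 and 164 in plasmablasts against 68.1, 98.0 and 116 in naive cells. Tnfrsf17, which encodes the survival receptor BCMA, is listed in the cultured table alone, at 18.9 and 12.8 deposited RPKM in plasmablasts and 0.220 to 0.447 in activated cells. Cd28, listed in that table alone as well, was at 6.17 and 6.71 deposited RPKM in plasmablasts and 0.281 to 0.402 in activated cells. Against activated cells, 2 of the 27 were higher with all libraries, and 22 were higher and 1 lower without 3 libraries.

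The secretory pathway was expanded along its length. The ER folding and unfolded protein response list had 23 of 44 tested genes called higher and 1 lower (median 2.30), translocation and glycosylation 20 of 41 higher (median 1.91), and ER to Golgi transport 12 of 41 higher (median 1.38), with no gene of the last 2 lists called lower. The 126 listed genes of the pathway took 9.22% and 11% of the summed RPKM in plasmablasts, against 2.17% to 2.34% in naive cells. In activated cells they took 4.47%, 5.35% and 7.01%, in between, with the highest share in library m3. No plasmablast or activated library fell in the naive range.

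Folding enzymes and quality control moved by different amounts. Creld2, an ER isomerase, was at 664 and 820 in plasmablasts, against 41.2, 47.6 and 56.3 in naive cells, a difference of 3.94. Sdf2l1, a partner of BiP in folding, was at 689 and 849 in plasmablasts, against 23.6, 39.4 and 50.3 in naive cells, a difference of 4.27. Derl3, a channel component of ER-associated degradation, was at 164 and 176 in plasmablasts, against 1.35, 3.08 and 4.37 in naive cells. Hspa5, which encodes BiP, the main ER chaperone, was at 392 and 576 in plasmablasts, against 122, 153 and 162 in naive cells. The Hspa5 ranges were apart, but the difference of 1.68 did not reach 4-fold. Dnajb9 (1.79), Calr (1.87), Canx (0.99) and Atf4 (0.62) also stayed below 4-fold. Ddit3, the stress factor CHOP, was at 8.41 and 8.72 in plasmablasts, against 12.9, 14.2 and 17.0 in naive cells. Ppp1r15a, the phosphatase subunit GADD34 that ends translational arrest, was the member called lower, at 11.7 and 10.4 in plasmablasts against 56.2, 65.4 and 78.5 in naive cells. Ern1, the sensor IRE1 that splices Xbp1 mRNA, rose by 3.08. Against activated cells, none of the 44 passed with all libraries, while 39 were higher and 1 lower without 3 libraries.

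The ER stress response element is the sequence through which ATF6 and XBP1 are known to act on such genes. Its letters, CCAAT, then 9 bases of any kind, then CCACG, were searched on both strands of RefSeq promoter windows (250 bases before to 50 after a start, GRCm38.p6) and were found for 37 of 27025 genes (0.137%) and for 16 of 7899 tested genes with a window (0.203%). They were found for 10 of the 39 folding genes with a window (25.6%), and for none of the 30 translocation or 35 ER to Golgi genes with one. The list was drawn up from known targets of this response, so the share is a description. Of the 10, Creld2, Derl3, Dnajc3, Hsp90b1 and Pdia6 were called higher, while Hspa5, Calr, Canx, Ero1lb and Syvn1 were not, so a match did not separate called from uncalled members. Their windows are shown because they let the called and uncalled genes be compared base by base, with the element in capitals and the strand it reads on:
Creld2, chr15:88819512-88819546, minus strand: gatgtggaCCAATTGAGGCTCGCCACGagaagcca
Derl3, chr10:75893234-75893268, minus strand: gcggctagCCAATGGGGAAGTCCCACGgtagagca
Dnajc3, chr14:118937819-118937853, plus strand: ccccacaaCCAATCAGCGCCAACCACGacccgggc
Hsp90b1, chr10:86705525-86705559, plus strand: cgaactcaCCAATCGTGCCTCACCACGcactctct
Hsp90b1, chr10:86705630-86705664, minus strand: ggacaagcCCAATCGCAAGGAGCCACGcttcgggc
Pdia6, chr12:17266483-17266517, plus strand: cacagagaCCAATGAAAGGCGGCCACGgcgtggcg
Hspa5, chr2:34772017-34772051, plus strand: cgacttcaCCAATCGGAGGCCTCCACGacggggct
Calr, chr8:84847067-84847101, plus strand: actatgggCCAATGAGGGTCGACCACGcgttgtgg
Canx, chr11:50325792-50325826, minus strand: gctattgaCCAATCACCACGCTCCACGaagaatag
Ero1lb, chr13:12565674-12565708, minus strand: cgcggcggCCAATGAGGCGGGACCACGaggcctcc
Syvn1, chr19:6046524-6046558, plus strand: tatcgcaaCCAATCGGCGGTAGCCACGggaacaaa

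Hsp90b1, the ER chaperone GRP94, was the one gene with 2 matches and was at 796 and 1230 in plasmablasts, against 122, 126 and 163 in naive cells. Its difference was 2.85, equal to that of Dnajc3 with 1 match. Derl3, with 1 match, showed the largest difference of the 10 (5.41) and started from the lowest naive level. Syvn1, an ubiquitin ligase of ER-associated degradation, did not reach 4-fold, with 86.6 and 91.7 in plasmablasts against 40.8, 43.2 and 45.7 in naive cells. A match is a description of these letters and neither a bound site nor a cause.

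Entry into the ER and exit from it rose with folding. Ssr2, a subunit of the translocon-associated complex, was at 251 and 300 in plasmablasts, against 16.7, 20.2 and 24.0 in naive cells, a difference of 3.68. Sec61b, part of the translocation channel, was at 243 and 298 in plasmablasts, against 22.5, 25.6 and 28.0 in naive cells. Tram2 (3.35) and Ssr3 (3.33), also at the channel, were called, as were Sec61a1 (2.89) and the signal peptidase gene Sec11c (2.07), while Dad1 of the oligosaccharyltransferase (1.70) was not. On the way to the Golgi, Sec24d, a cargo adaptor of COPII vesicles, was at 92.0 and 97.5 in plasmablasts, against 1.18, 1.51 and 2.94 in naive cells. Lman1, a cargo receptor, differed by 3.55, Kdelr2, which returns escaped ER proteins, by 3.54, and Ergic1 by 3.30. Among coat genes, Cope and Sec24a were called as well, while Copa was not, at 59.5 and 66.5 in plasmablasts against 33.8, 37.8 and 45.5 in naive cells. Tram2 also exceeded activated cells with all libraries, by 1.09 ± 0.18 (limma adjusted p = 0.0202).

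The transcription factors that hold B cell identity were lower without exception in sign. Of 28 tested, 16 were called lower, none higher, and all 28 differences were negative, with a median of -2.81. Spib, an ETS factor of B cells (Entrez 272382, mm10 chr7:44525995-44532087), was at 0.427 and 0.25 in plasmablasts, against 163, 196 and 215 in naive cells, a difference of -7.19. Pax5, the B cell commitment factor, was at 0.949 and 0.356 in plasmablasts, against 12.6, 14.7 and 23.6 in naive cells. Both were near the detection limit in plasmablasts and well above it in every naive library. Bach2, a repressor of Prdm1, was at 1.45 and 0.536 in plasmablasts, against 15.4, 16.9 and 24.6 in naive cells. Bcl6, the germinal centre repressor, was at 1.80 and 0.524 in plasmablasts, against 20.2, 25.3 and 29.5 in naive cells. Ebf1 differed by -3.12, Hhex by -5.65 and Id3, an inhibitor of E proteins, by -5.18. Spi1, which encodes PU.1, Foxo1 and Tcf3, which encodes E2A, were lower in each plasmablast library than in any naive library but did not reach 4-fold.

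The steps at which these factors fell differed by gene. In activated cells, 8 of the 28 were called lower than naive (6 with m1 and m2 alone, where 3.1% of all genes were called higher and 1.7% lower). Bcl6 was at 1.76, 1.34 and 1.13 there, near its plasmablast level, and its plasmablast minus activated difference of -0.20 had a limma adjusted p of 0.954. Pax5 was at 7.51, 4.81 and 2.65 in activated cells, between the other stages, and its difference of -1.83 ± 0.50 had a limma adjusted p of 0.122 with all libraries and of 9.26e-06 without 3 libraries. Spib was at 52.9, 47.8 and 26.1 in activated cells, and fell by 5.02 ± 0.45 on the log2 scale between activated cells and plasmablasts (limma adjusted p = 0.00222). Against activated cells, 8 of the 28 were lower with all libraries and 24 without 3 libraries, and none was higher in either fit.

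Irf8, the gene that the study targeted in the Thy1.1+ cells, was itself lower in WT plasmablasts. It was at 22.7 and 15.6 in plasmablasts, against 86.8, 93.1 and 100 in naive cells (Entrez 15900, mm10 chr8:120736358-120756694), a difference of -2.26. In activated cells Irf8 was at 103, 87.7 and 54.6, with m1 and m2 at or close to naive levels. The difference between plasmablasts and activated cells was -1.98 ± 0.30 (limma adjusted p = 0.0156). In cells labelled IRF8 KO, Irf8 RNA was at 16.4, 19.4 and 36.2 in plasmablasts, against 49.7, 54.9 and 83.0 in naive cells, so Irf8 RNA remained in the libraries labelled KO. Naive KO libraries lay below all naive WT libraries, and plasmablast values overlapped between the genotypes. Of 8 tested interferon regulatory factor genes, Irf4 was called higher and Irf5 and Irf8 lower. Under median-ratio scaling neither Irf5 nor Irf8 was called, and Irf8 was not called without plasmablast library m2. Irf5, a factor of Toll-like receptor signalling, was at 31.5 and 29.9 in plasmablasts, against 136, 157 and 189 in naive cells. Irf7 was at 23.5 and 19.4 in plasmablasts, above the naive range of 11 to 17.0 but below 4-fold.

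The EICE, a composite site bound by PU.1 or SPIB together with IRF4 or IRF8, was searched as GGAA, then 2 bases of any kind, then GAAA, on both strands of the same windows. It was present for 853 of 27025 genes (3.16%) and for 230 of 7899 tested genes with a window (2.91%). Among genes with a window it was present for 22 of the 418 called lower (5.26%) and for 8 of 324 called higher (2.47%). Among the 14 called B cell regulators with a window it was present in Bach2 and Bcl6 (14.3%). The share was the same among tested regulators with a window, 3 of 21 (14.3%). These shares describe letters in a short window and nothing about binding.

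Surface genes of B cells were lower, but not all of them. Of 42 tested surface and receptor-signalling genes, 24 were called lower and none higher, with a median of -2.39. Fcer2a, which encodes CD23 (Entrez 14128, mm10 chr8:3680280-3694174), was at 1.93 and 0.750 in plasmablasts, against 288, 386 and 461 in naive cells, and at -7.38 had the largest fall among genes at 10 RPKM or more. Cd22, an inhibitory co-receptor, was at 1.29 and 0.597 in plasmablasts, against 159, 192 and 217 in naive cells. Cr2, which encodes CD21, was at 5.52 and 7.06 in plasmablasts, against 58.8, 118 and 171 in naive cells. Levels of these receptors in plasmablasts were below every naive library by a factor of 8 or more. Ms4a1, which encodes CD20, kept more of its RNA, with 44.3 and 36.3 in plasmablasts against 223, 244 and 289 in naive cells. The antigen receptor's own signalling chains stayed high. Cd79a was at 746 and 1020 in plasmablasts, against 1220, 1390 and 1470 in naive cells, a difference of -0.66. Cd79b differed by -1.75 and the kinase Syk by -1.09, and neither reached 4-fold. Fcer2a in activated cells was at 79.5, 57.4 and 18.5, and fell further to plasmablasts by 4.33 ± 0.68 on the log2 scale (limma adjusted p = 0.0185).

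Genes of antigen presentation by MHC class II were lower. Of 17 MHC class II genes, 8 were called lower and none higher, with a median of -1.96. Ciita, the class II transactivator, was at 0.412 and 0.291 in plasmablasts, against 45.5, 58.0 and 75.3 in naive cells, a difference of -5.46. H2-DMb2, an editor of peptide loading, was at 12.4 and 9.92 in plasmablasts, against 399, 441 and 488 in naive cells, a difference of -5.17. H2-Oa, an inhibitor of that editor, was at 0.321 and 0 in plasmablasts, against 54.5, 68.5 and 85.6 in naive cells, a difference of -5.92. H2-Aa, a chain of the class II molecule, was at 71.2 and 72.8 in plasmablasts, against 476, 518 and 557 in naive cells, a difference of -2.83. Ciita and H2-Oa were near 0 in plasmablasts, while H2-Aa was still well above 0. H2-Ab1 (-1.96) and the invariant chain Cd74 were not called. Cd74 was at 710 and 1280 in plasmablasts, against 2190, 2350 and 2540 in naive cells. The class II list took 0.769% and 1.07% of summed RPKM in plasmablasts, against 2.78% to 3.24% in naive cells. Ciita fell between activated cells and plasmablasts by 3.28 ± 0.45 (limma adjusted p = 0.0108).

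Homing, quiescence and early-response genes were lower too. Of 22 trafficking receptors, 10 were called lower and none higher. Ccr7, the lymph node and T zone homing receptor, was at 1.02 and 0.728 in plasmablasts, against 146, 196 and 268 in naive cells. No plasmablast value of Ccr7 came near its naive range. Cxcr5, the follicle receptor, differed by -2.97 and S1pr1, the egress receptor, by -3.06, while Cxcr4, a bone marrow homing receptor, was at 14.7 and 9.19 in plasmablasts, against 4.50, 6.67 and 9.32 in naive cells, with ranges that overlapped. Of 29 quiescence genes, 14 were called lower, led by Klf2 (-6.71), a factor of resting lymphocytes, and Btg1 (-5.44), an anti-proliferative gene. Of 18 early-response genes, 7 were called lower. Fos was at 2.15 and 0.759 in plasmablasts, against 49.6, 59.4 and 71.9 in naive cells, and was at 0.367, 0.590 and 0.832 in activated cells, so its level was low in both cultured stages.

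**Figure D3:**
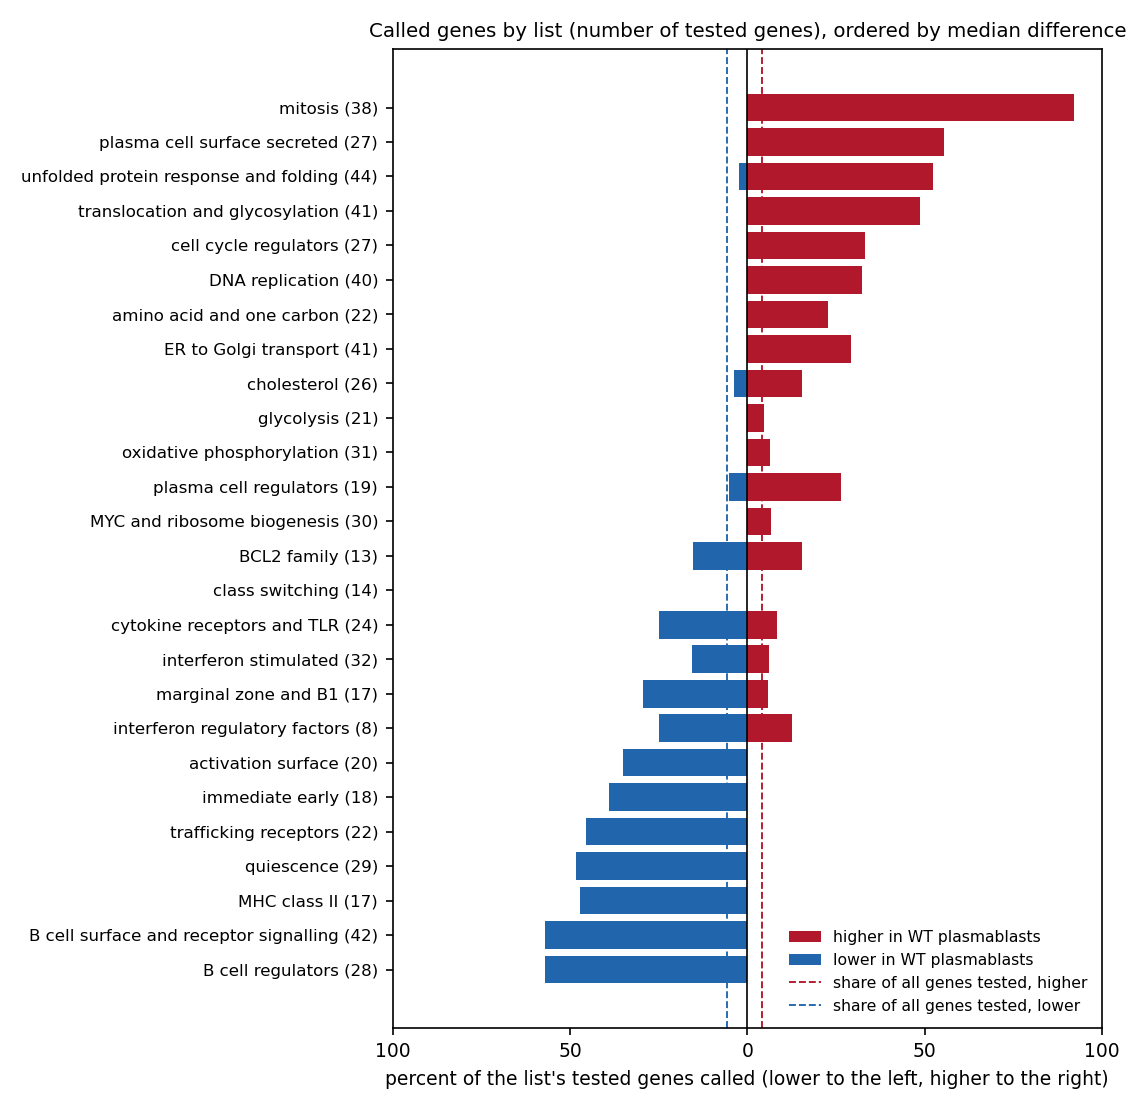
Percent of the tested genes of each list called higher (right) or lower (left) in WT plasmablasts relative to WT naive B cells, ordered by median difference, with the number tested in brackets. Dashed lines give the share of all tested genes, 4.25% higher and 5.59% lower; mitosis and the secretory lists stand far above the first, and B cell regulators, surface genes, quiescence and MHC class II far above the second.

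Cell division separated cultured from naive cells more than plasmablasts from activated cells. Of 38 mitosis genes, 35 were called higher in plasmablasts than in naive cells and none lower, with a median of 3.41, the highest of the 26 lists. In activated cells 35 were called higher as well, with a median of 3.51. Mki67, a marker of cycling cells, was at 69.4 and 51.0 in plasmablasts, against 0.0113, 1.15 and 3.33 in naive cells. Ube2c, the ubiquitin-conjugating enzyme of the anaphase-promoting complex, was at 122 and 93.9 in plasmablasts, against 0, 0.5 and 7.48 in naive cells. Naive arm 1 library C held the most of several mitotic RNAs, and the mitosis list took 0.0257% to 0.111% of summed RPKM in naive libraries, against 0.828% and 0.632% in plasmablasts. Of 40 DNA replication genes, 13 were called higher, with a median of 1.45. Rrm2, a subunit of ribonucleotide reductase, was at 203 and 192 in plasmablasts, against 1.93, 7.07 and 21.5 in naive cells. Mcm2 and Mcm5, of the replicative helicase, differed by 1.60 and 1.77 and were not called. Against activated cells, none of either list passed with all libraries. Without 3 libraries 6 mitosis genes were higher and 3 lower, and 3 replication genes were higher and 16 lower. In that fit 15.5% of all genes were higher and 30.7% lower, so the count of higher mitosis genes lay near that share.

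The CHR, the promoter element of genes expressed late in the cell cycle, was searched as TTTGAA on both strands. It was present for 24 of 30 called mitosis genes with a window (80.0%) and for 25 of the 33 tested ones (75.8%). Among all 27025 genes it was present for 5466 (20.2%), and among 7899 tested genes for 1141 (14.4%). Among 31 tested DNA replication genes with a window it was present for 4 (12.9%). The mitosis list is made of known late cell cycle genes, and 35 of its 38 tested members were called, so its CHR share is a description. CCAAT, the box bound by NF-Y, was found for 26 of the 33 tested mitosis genes (78.8%), against 41.1% of all genes. Among tested genes with a window its share was 79.5% for ER folding, 84.6% for MHC class II and 64.5% for DNA replication. The CCAAT share was thus not highest in mitosis genes. One window each of 6 members is shown to place the element among genes called together, with the element in capitals:
Cdk1, chr10:69352914-69352935, minus strand: gcggcgagTTTGAAactgctgg
Ccnb2, chr9:70421537-70421558, minus strand: gcgcggtaTTTGAAtcgcggac
Cdc20, chr4:118437348-118437369, minus strand: agttgggtTTTGAAggagccaa
Plk1, chr7:122159457-122159478, plus strand: gcgccgcgTTTGAAttcgggga
Prc1, chr7:80294438-80294459, plus strand: tggctcggTTTGAAttccgcgg
Mki67, chr7:135716464-135716485, minus strand: cgttttggTTTGAAtcgggcgg

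The Ube2c window (chr2:164769679-164769978, plus strand), the strongest riser of the list, holds the CHR once, on the opposite strand, after several CCAAT boxes in both directions, all in capitals:
Ube2c: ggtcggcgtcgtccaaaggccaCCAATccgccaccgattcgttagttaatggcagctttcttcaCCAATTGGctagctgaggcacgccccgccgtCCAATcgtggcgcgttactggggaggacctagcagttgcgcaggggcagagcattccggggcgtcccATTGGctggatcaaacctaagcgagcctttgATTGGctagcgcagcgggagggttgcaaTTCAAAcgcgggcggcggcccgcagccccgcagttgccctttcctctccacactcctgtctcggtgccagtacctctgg

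**Figure D4:**
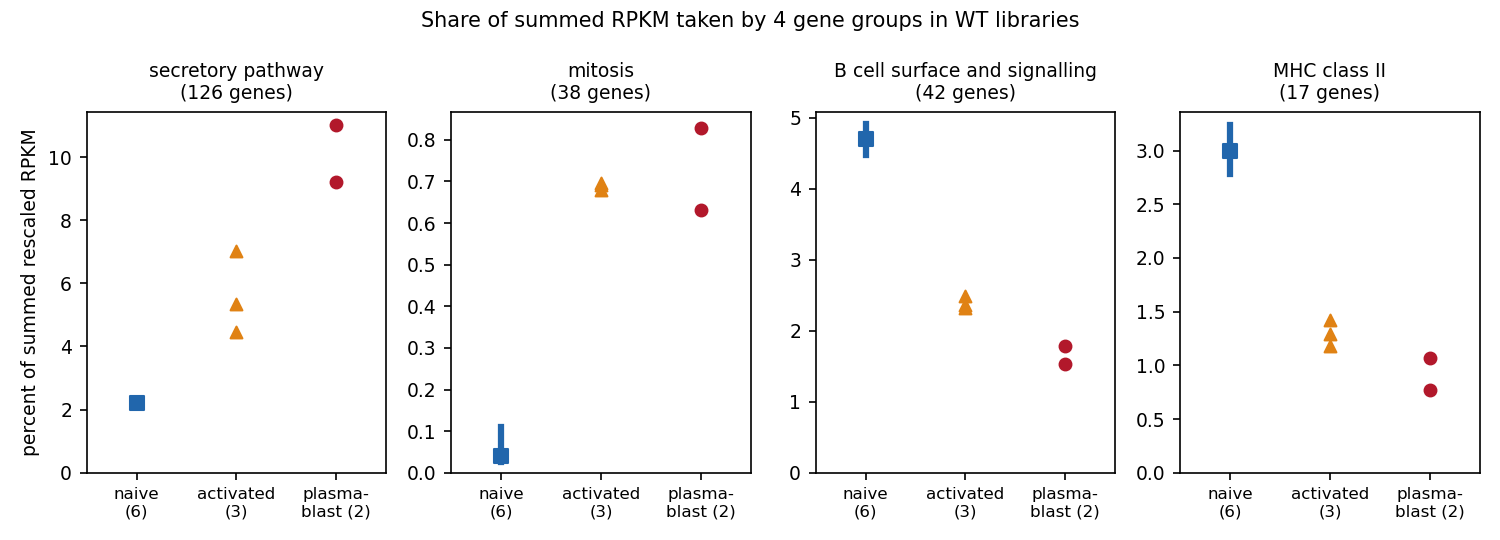
Percent of the summed rescaled RPKM of each WT library taken by 4 gene groups, over naive (square, median; bar, lowest to highest of 6), activated (triangles, 3) and plasmablast (circles, 2) stages. The secretory share climbs to 9.22% and 11% in plasmablasts, mitosis is near 0 in naive cells alone, and the B cell surface and MHC class II shares are lowest in plasmablasts.

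Metabolic lists differed among themselves. Of 30 MYC and ribosome-biogenesis genes, 2 (Srm and Cad) were called higher and none lower, with a median of -0.39. These counts lay near the shares of all tested genes, 4.25% higher and 5.59% lower. Myc was at 5.63 and 6.58 in plasmablasts, against 18.5, 20.9 and 27.6 in naive cells, with no overlap but below 4-fold. Against activated cells none of the 30 passed with all libraries. Without 3 libraries 21 were lower and 5 higher, where 30.7% of all genes were lower and 15.5% higher. Among the lower were the nucleolar genes Ncl (-1.01 ± 0.11, limma adjusted p = 1.31e-05) and Npm1 (-1.37 ± 0.13, limma adjusted p = 2.63e-06). Of 22 amino acid genes, 5 were called higher, with a median of 1.45. Asns, asparagine synthetase, was at 25.1 and 27.0 in plasmablasts, against 0.0550, 0.349 and 1.03 in naive cells, and was at 33.5, 28.7 and 22.2 in activated cells. Pycr1, of proline synthesis, was at 42.9 and 38.4 in plasmablasts, against 0.0747, 0.166 and 0.912 in naive cells. Pycr1 also exceeded activated cells, where it was at 8.98, 9.77 and 14.3, by 1.86 ± 0.38 (limma adjusted p = 0.0466). Glycolysis (1 of 21 higher) and oxidative phosphorylation (2 of 31 higher) lay near the background of 4.25%, with medians of 0.67 and 0.50. The glycolysis count was 4 under median-ratio scaling, 3 without rescaling or without plasmablast library m1, and 2 without naive arm 1 C or arm 2 B. Of 26 cholesterol genes (median 1.29), 4 were called higher and Abca1, an exporter of cholesterol, lower, but Abca1 was not called under median-ratio scaling, without plasmablast library m2 or without naive arm 2 C.

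Survival genes and receptors moved in both directions. Bcl2 was at 1.95 and 3.14 in plasmablasts, against 19.6, 28.9 and 33.1 in naive cells, and Bcl2l1, which encodes BCL-XL, was at 23.9 and 25.4 in plasmablasts, against 0.216, 0.451 and 0.536 in naive cells. These anti-apoptotic genes thus differed in opposite directions, by -3.02 and 4.21. Bcl2a1b, a further anti-apoptotic gene with near-identical copies between which reads may be split, differed by -3.08. Its copies Bcl2a1a and Bcl2a1d were tested and not called. Bcl2l11, which encodes the pro-apoptotic BIM, differed by 2.14. Mcl1, on which plasma cells depend, was at 251 and 267 in plasmablasts, against 322, 362 and 403 in naive cells. Of 24 cytokine and Toll-like receptor genes, 2 were called higher and 6 lower. The shares over all tested genes were 4.25% higher and 5.59% lower. Il2ra, a receptor chain for the IL-2 given in culture, was at 22.5 and 15.2 in plasmablasts, against 0.904, 1.34 and 2.44 in naive cells, and was at 23.8, 22.8 and 25.0 in activated cells. Il5ra, a receptor chain for the IL-5 given, was not called, with 1.66 and 0.477 in plasmablasts against 1.22, 6.0 and 18.6 in naive cells. Tlr4, the receptor for LPS, was at 1.52 and 1.28 in plasmablasts, against 4.94, 6.16 and 8.45 in naive cells. Of 32 interferon-stimulated genes, Isg15 and Ifi27l2a were called higher and 5 were called lower, with 25 of 32 differences negative and a median of -0.89. The higher count was 1 without plasmablast library m2 or without naive arm 2 C. Of 20 activation surface genes, 7 were called lower, among them Cd86, a ligand of CD28, at 0.632 and 0.700 in plasmablasts against 9.03, 14.5 and 19.7 in naive cells. Of 17 marginal zone and B-1 genes, 5 were called lower and Cd36 higher. For the cytokine and Toll-like receptor, interferon-stimulated, activation surface and marginal zone lists, the higher counts lay near the 4.25% of all tested genes.

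The same comparison in cells labelled IRF8 KO used other libraries but the same split of tables, so the table and the stage cannot be told apart there either. With plasmablast KO m1 and m2, 460 of 9759 genes (4.71%) were called higher and 471 (4.83%) lower than in 6 naive KO libraries. Of these, 372 higher calls were also WT calls (90.1% of the WT higher calls, 80.9% of the KO ones), as were 416 lower calls (76.6% of the WT, 88.3% of the KO), and no gene had opposite calls. With plasmablast KO m3 included, the counts were 407 (4.12%) and 509 (5.15%). Median differences of the lists in KO and in WT cells were 2.19 and 2.30 for ER folding, 3.70 and 3.41 for mitosis, and -2.23 and -2.81 for B cell regulators. Bach2, called lower in WT cells (-3.28), was not called in KO cells (-1.99), and the difference between these values was not tested.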

How the data were processed

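RNA of sorted cells was made into SMART-seq v4 and Nextera XT libraries, per the labels' protocols. STAR and mm10 are named in the submitters' processing notes; the counting tool and annotation are not given in the sources used here. The authors deposited RPKM, which are not counts, in 1 table for naive and 1 for cultured libraries. Whole-read steps in low values gave the estimated depths. Tables were joined on Entrez ID (10178 genes), each library was rescaled to a common sum over these genes, and log2(RPKM + 1) was used. Genes at 1 RPKM in 2 libraries were tested, and a call needed a 4-fold difference of means and ranges that did not overlap. Within the cultured table, limma 3.58.1 (R 4.3.3) was fitted to log2(deposited RPKM + 1), not rescaled, of all 11 libraries. Benjamini-Hochberg adjustment at 0.05 was used, and the fit was tested on simulated data. The 113 named genes were the 12 largest differences each way among called genes averaging 10 RPKM or more in the higher group, the 4 called genes of each list with the largest difference, and a set of core genes; other list members are given as examples chosen after their values were seen. The members and lists were chosen with earlier results of these data known. Motifs were searched in RefSeq promoters of GRCm38.p6, the build called mm10, and gene coordinates are of that build. Alternatives were other scalings, pseudocounts, filters, a larger fold, a replicate block and leaving out each WT library; the set without 3 libraries was made because of their depth or Thy1 level, and the activated comparison on m1 and m2 was chosen after seeing the data. Immunoglobulin genes were not analysed here, and a few genes are not reported here.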

Additional observations from a re-analysis of the deposited data

Results flagged for a closer look

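In the 6 WT naive libraries, 20 of the genes described had 1 library far from the other 5, where chance gives such a gap in about 1 in 20 groups. The values are rescaled RPKM, and the causes were not tested.

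Secretory genes of this kind were Jchain at 71.7 in arm 2 library C (median 2.37), Slpi at 26.1 in arm 2 A (median 1.30), Hid1 at 0.843 in arm 2 A (median 0.0384), Fkbp11 at 2.37 in arm 1 C (median 1.12) and Eaf2 at 2.19 in arm 1 A (median 1.46). All remained far below the plasmablast libraries.

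Arm 1 library C had 8 of the 20. Besides Fkbp11 these were the cycle genes Ube2c at 7.48 (median 0.5), Cdc20 at 19.6 (median 4.90), Plk1 at 7.51 (median 1.11), Cks1b at 12.5 (median 4.37) and Ccnd2 at 26.5 (median 14.4), the histone gene H1f0 at 3.34 (median 0.777), and Icosl, which was the lowest at 77.9 (median 108).

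In arm 1 A, Thy1 was at 5.09 (median 0.0245). In arm 1 B, Psat1 was at 5.53 (median 3.55). In arm 2 A, Myc was at 27.6 (median 20.9) and Slfn8 was the lowest at 21.2 (median 25.3). In arm 2 B, Cdc6 was the lowest at 0.0307 (median 0.627). In arm 2 C, Cad was at 11.3 (median 6.78), Abca1 at 22.1 (median 9.22) and Notch2 at 36.5 (median 17.1).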

How the results depend on the processing

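Of 107 named genes called between WT plasmablasts and WT naive cells, 73 kept the call in all 16 settings and none had the opposite call. The counts of higher and lower calls were 500 and 465 without rescaling (51.8% higher, median difference -0.18). A pseudocount of 0.1 gave 606 and 899, a pseudocount of 5 gave 197 and 228, and an 8-fold threshold gave 149 and 191. Leaving out 1 library at a time gave 357 to 427 higher and 495 to 608 lower. Tent5c, Hid1, Pycr1, Bcl2l1, Cdc6 and Mcm10 lost the call without either plasmablast library, since a level in 2 libraries was required, and Pdia4, Cad and Cdkn3 did so without m2.

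For plasmablasts against activated cells in limma, the counts were 1153 higher and 1979 lower with the WT libraries alone, 1533 and 3032 without the 3 doubted libraries, and 157 and 212 after quantile normalization. Leaving out each of the 5 WT libraries in turn gave 0 to 33 higher and 0 to 153 lower. With the replicate block the counts were 11 and 109. Same-numbered libraries correlated at 0.254 and 0.0407 in their deviations. These 2 pairs and the labels do not show that the numbers pair the samples, so the block is given as an alternative. The 2 plasmablast libraries limit every result here, and p-values cover the spread between libraries only.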
